A study of Homo sapiens with 121 samples.

Results

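NANOG-high and NANOG-low hESCs are 44 single cells of the human embryonic stem cell line WA26, chosen by the level of the NANOG transcript in their own libraries. The line was grown without feeder cells, and the labels name no treatment or edited gene for any cell. Of 121 cells, 68 had more than 8000 genes above a TPM of 1 (a level per length of transcript, scaled to the same total in each cell), and these were ranked by NANOG. The 22 cells with the highest NANOG TPM are called NANOG-high, the 22 with the lowest NANOG-low and the 24 between them middle cells. The assay, scT&R-seq, sequences the mRNA of a cell and measures telomere repeats by qPCR in the DNA of the same cell, and the sample titles call each cell long, medium or short by its telomeres. No culture or batch is named for any cell. Each side therefore counts as 1 sample, the errors given are SDs across cells, and no p-value was computed.

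NANOG is a homeodomain transcription factor that, with POU5F1 (OCT4) and SOX2, holds embryonic stem cells in the pluripotent state. In human cells of the primed kind its gene is kept active by SMAD2 and SMAD3, the signal carriers of Nodal and Activin, and FGF2 in the medium supports the same state. Single cells of a pluripotent culture are known to differ in their NANOG level. LEFTY1 and LEFTY2 are secreted inhibitors of Nodal that are also its targets.

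NANOG lies on chromosome 12 at 7940390 to 7951742 on the plus strand of GRCh37. Its promoter is shown because it holds a paired site for OCT4 and SOX2, the factors whose own transcripts are compared between the sides here. The 250 bases before the RefSeq start site match GRCh37 exactly once, at chr12:7941748-7941997 on the plus strand. The capitals mark 12 bases of the paired site, TTTGCATTACAA, which begin 120 bases before the start site with the core of the OCT4 octamer, TTTGCAT. The length of 12 was set for the search, and the paired site may extend past the capitals.

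NANOG promoter: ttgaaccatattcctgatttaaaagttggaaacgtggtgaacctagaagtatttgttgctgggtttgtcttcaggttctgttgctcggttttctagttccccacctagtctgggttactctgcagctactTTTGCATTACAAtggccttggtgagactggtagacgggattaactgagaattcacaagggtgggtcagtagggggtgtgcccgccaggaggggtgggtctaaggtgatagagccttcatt

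These 12 letters, read from the NANOG promoter and searched on both strands, stand in 3 of 35116 RefSeq promoter windows of 300 bases, or 0.00854%. The core TTTGCAT alone, which is a part of them, stands in 1567 windows, or 4.46%. Of the 48 windows of NANOG and of the core pluripotency and Nodal genes listed here, 4 hold the core, those of NANOG, SOX2, SMAD3 and SMAD7, and the NANOG window alone holds all 12 letters. The promoter set has no window for LEFTY1 and LEFTY2, so these genes were not searched. A match of letters is a description of the sequence and not of binding.

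NANOG itself was 259.65 to 477 TPM in NANOG-high cells, with a median of 288, and 58.96 to 182 TPM in NANOG-low cells, with a median of 138. The ratio of the medians was 2.09. These values chose the cells and are no result. At the borders, the lowest NANOG-high cell had 259.65 TPM against 257.95 in the highest middle cell, and the highest NANOG-low cell had 182.28 against 188.38 in the lowest middle cell. Every NANOG-low cell thus still carried NANOG mRNA well above the detection limit of TPM 1. All 7 hESC markers checked (NANOG, POU5F1, SOX2, LIN28A, DNMT3B, ZFP42 and TDGF1) were detected in each of the 44 cells. The GRCh37 annotation names 9 NANOG pseudogenes, and reads of NANOG may be shared with them.

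As libraries, the sides were not alike. NANOG-high cells had 10068 ± 673 detected genes and NANOG-low cells 9461 ± 865 (SD, n = 22 each), a difference of 607 genes that is smaller than the SD across cells of either side. Over the 68 ranked cells, NANOG TPM and the number of detected genes had a Spearman's rho of 0.39, both read from the same library. The TPM of 86 ribosomal protein genes summed to 222090 to 288023 in NANOG-high cells. In 4 NANOG-low cells the sum was under 200000, as it was in 1 middle and in 0 NANOG-high cells, and these 4 had 8064 to 9041 detected genes. Values are also given for NANOG-high cells against the 18 other NANOG-low cells. The border of 200000 was set after the values were seen and does not mark a clear gap. A NANOG-low cell among the 18, with a sum of 207003, also lay below every NANOG-high cell. The part of library depth in the results was not tested, since TPM keeps no read number.

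**Figure D1:**
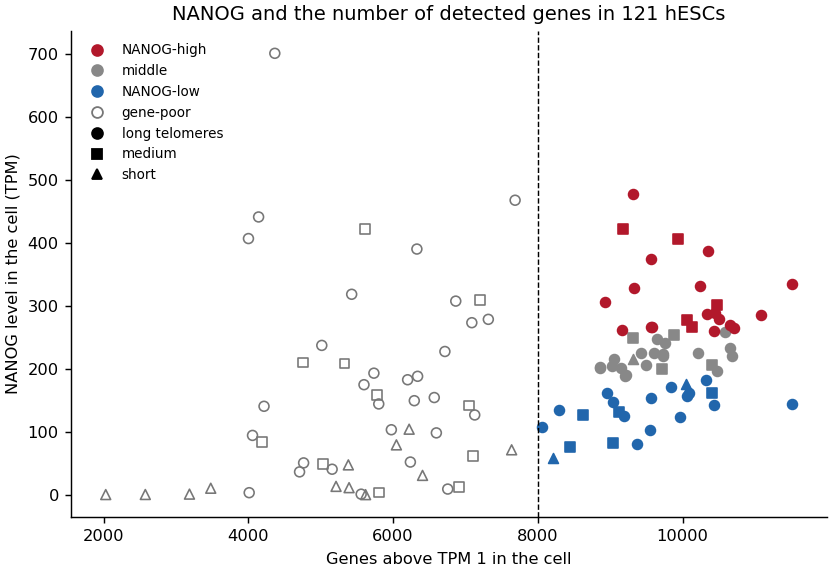
NANOG level (TPM, vertical axis) against the number of genes above TPM 1 (horizontal axis) in each of the 121 cells. Filled red, grey and blue points are the 22 NANOG-high, 24 middle and 22 NANOG-low cells above the border of 8000 genes (dashed line), open points are the 53 gene-poor cells, and the shape gives the telomere class. The NANOG-low cells with the fewest genes lie just right of the border.

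Telomere class was spread over both sides. Of the NANOG-high cells, 17 of 22 (77.3%, exact binomial 95% interval 54.6% to 92.2%) were titled long and 5 medium. Of the NANOG-low cells, 15 of 22 (68.2%, 45.1% to 86.1%) were titled long, 5 medium and 2 short. Short telomere cells numbered 0 of 22 among NANOG-high cells, which allows a share of up to 13.6% by 3 counts of the total and of up to 15.4% by the exact interval. The middle cells held 19 long, 4 medium and 1 short. The intervals of the sides overlap for each class, and they cover counting error among the cells of 1 sample only. Among the 53 gene-poor cells, which the ranking did not use, the 17 with the highest NANOG held 13 long and 0 short (0% to 19.5%) and the 17 with the lowest NANOG held 5 long and 9 short (27.8% to 77.0%). NANOG was not detected or low there, with 0 to 48.6 TPM in the 17 lowest cells, and these also had fewer detected genes, 4895 ± 1405 against 5878 ± 1174.

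Across the transcriptome, the sides differed little. Of 6185 genes with a mean of at least 10 TPM over the ranked cells, NANOG left out, 165 had a mean log2(TPM + 1) at least 1 higher in NANOG-high cells and 40 at least 1 lower, which is 2.67% and 0.647% of the genes compared. A log2 difference of 1 is a fold of 2 on a scale that understates the change of low genes. The median difference over all genes was 0.08, and the middle 90% lay between -0.55 and 0.84. Of the 165 higher genes, 1 differed by more than the SD across cells of both sides and 60 by more than the smaller of the SDs, and of the 40 lower genes 0 differed by more than both. The genes past 1 were mostly scarce, with a median of 19.0 TPM against 30.7 TPM for all genes compared, and 17 of them reached a mean of 50 TPM, of 2209 genes that did. Middle cells had a mean between the sides for 136 of the 165 higher and 32 of the 40 lower genes. Without the 4 cells of low ribosomal sum, 134 genes were higher and 30 lower, of which 95 and 21 were among the 165 and the 40. That is 57.6% of the 165 and 70.9% of the 134. After linear adjustment for the number of detected genes, 83 genes were higher and 73 lower.

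**Figure D2:**
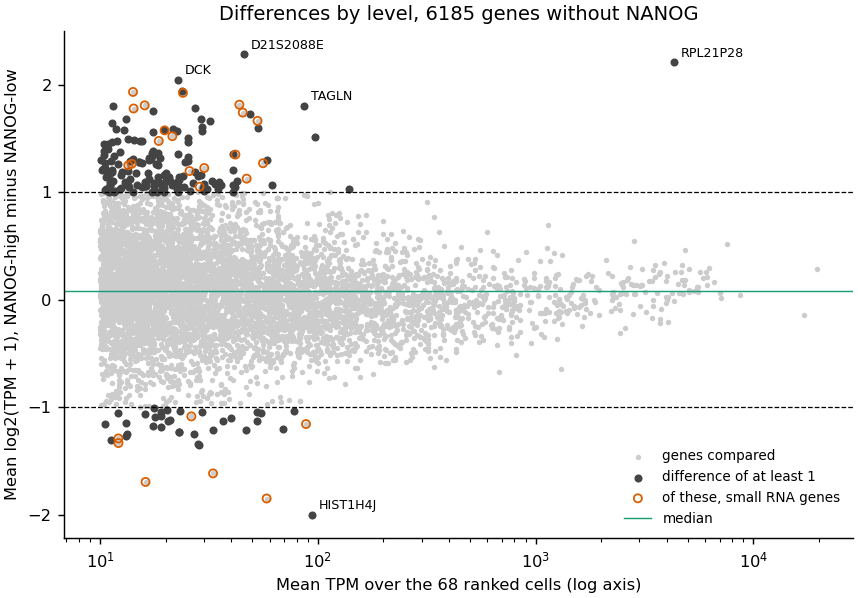
Difference of mean log2(TPM + 1), NANOG-high minus NANOG-low (vertical axis), against the mean TPM over 68 cells (horizontal log axis) for 6185 genes. Dark points lie past the dashed lines at 1 and -1, orange rings are small RNA genes among them, and the green line is the median of 0.08. The spread narrows with level, and RPL21P28 is the most abundant gene past 1.

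Nodal and its target LEFTY1 were among the genes higher in NANOG-high cells. NODAL, the ligand, on chromosome 10 at 72191692 to 72207707, was detected in 22 of 22 NANOG-high, 22 of 24 middle and 17 of 22 NANOG-low cells. Its TPM was 4.48 to 129.6 with a median of 30.4 in NANOG-high cells and 0 to 71.8 with a median of 15.0 in NANOG-low cells. No NANOG-high cell lacked NODAL, but above 4.48 TPM the sides overlapped. The mean log2(TPM + 1) was 4.81 ± 1.20 against 3.20 ± 2.24, a difference of 1.61, and the NANOG-high cell had more NODAL in 70.7% of high-low pairs of cells. All 4 NANOG-low cells of low ribosomal sum lacked NODAL, and without them the difference was 0.90, below 1, with 17 of 18 NANOG-low cells detected.

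LEFTY1, on chromosome 1 at 226073982 to 226099082, is an inhibitor that blocks Nodal outside the cell. It was detected in 16 NANOG-high, 13 middle and 8 NANOG-low cells. Its highest TPM was 135 in NANOG-high, 543 in middle and 176 in NANOG-low cells, and the medians were 6.90, 1.79 and 0.475. LEFTY1 was thus undetected in some cells of every group, in the largest share among the NANOG-low cells, and high in some cells of each. The difference was 1.66, from 3.43 ± 2.53 to 1.77 ± 2.43, and 1.27 without the 4 cells. LEFTY2, its near-identical neighbour with which reads may be shared, had a mean of 8.7 TPM, under the limit for comparison, and was detected in 12, 10 and 7 cells.

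The remaining genes of the pathway differed by less. Of the 23 genes listed for Nodal and Activin, 8 reached 10 TPM, of which 2, NODAL and LEFTY1, were past 1 (25%, against 2.67% of all genes compared) and 0 past -1, and the median of the 8 was 0.38 against 0.08 for all genes. Without the 4 cells, LEFTY1 alone was past 1 and the median was 0.36. GDF3, a ligand of the same receptors that lies near NANOG on chromosome 12, differed by 0.22, or 0.65 without the 4 cells, and covered 0 to 305 TPM in NANOG-high and 0 to 404 TPM in NANOG-low cells. TDGF1 (CRIPTO), the co-receptor, was abundant throughout, 392 to 1742 TPM against 187 to 1584 TPM, with a difference of 0.37. The receptor ACVR2B differed by 0.50 (0.30 without the 4 cells), the signal carrier SMAD2 by 0.38 and the SMAD repressor SKIL by 0.36. FOXH1, the DNA-binding partner of SMAD2, went the other way, -0.39 (-0.21 without the 4 cells). Below 10 TPM, SMAD4 was detected in 22 NANOG-high and 20 NANOG-low cells and the type I receptor ACVR1B in 14 and 12. CER1, a secreted Nodal antagonist, was detected in 0 NANOG-high, 4 middle and 3 NANOG-low cells. TGFBR1 was at a mean of 8.0 TPM, and CFC1 was listed at 0 in every ranked cell.

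**Figure D3:**
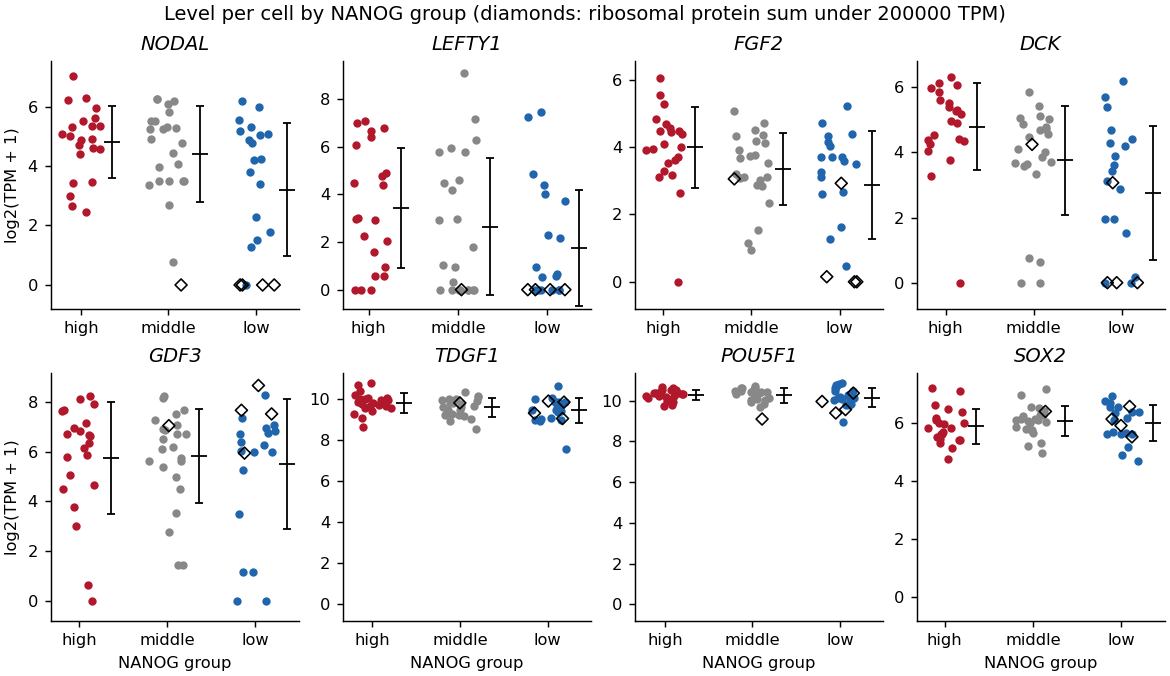
Level of 8 genes in each cell as log2(TPM + 1) (vertical axes) by NANOG group, with mean and SD across cells beside the points. Open diamonds are the cells whose ribosomal protein genes sum to under 200000 TPM. The diamonds of the NANOG-low group lie at 0 for NODAL and LEFTY1, while POU5F1 and SOX2 have nearly the same mean in the 3 groups.

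The other factors of the core network each differed by less than 1. Of 16 core pluripotency factors, 14 reached 10 TPM and 0 of them were past 1 in either direction. Over all genes compared, 2.67% were past 1 and 0.647% past -1, so a list of 14 genes may hold none. The 14 had differences from -0.34 to 0.79 and a median of 0.28, against 0.08 for all genes. POU5F1 was 850.0 to 1598.5 TPM with a median of 1280.3 in NANOG-high cells and 489 to 1839.8 TPM with a median of 1122 in NANOG-low cells. On the log2 scale this is 10.27 ± 0.25 against 10.14 ± 0.48, a difference of 0.13 that is smaller than the SD across cells of either side. SOX2 had medians of 56.1 and 68.7 TPM and a difference of -0.10. The factors of the site printed above thus had overlapping transcript levels on the sides that the choice of cells had set apart in NANOG.

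Among the same factors, DPPA2, an activator of early embryonic genes, had the highest difference, 0.79. It was detected in 21 of 22 NANOG-high and 17 of 22 NANOG-low cells, and its difference was -0.01 without the 4 cells. LIN28B, an inhibitor of let-7 maturation, differed by 0.74 and by 0.87 without the 4 cells, whereas its paralogue LIN28A differed by -0.03. The non-coding RNAs ESRG and LINC-ROR differed by 0.55 and 0.51, but by 0.23 and 0.20 without the 4 cells. PRDM14, a repressor of differentiation genes, went from 0.25 to 0.63 when those cells were left out, and TRIM28, a corepressor, from -0.34 to -0.14. ZFP42 (REX1) differed by 0.37 and by 0.30 without them. FOXD3 and UTF1 were under 10 TPM.

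Factors tied to the naive or the primed state were divided. Of 4 naive-associated factors compared, DPPA5 differed by 0.49, NR5A2 by 0.35, DPPA3 by 0.02 and GBX2 by -0.46. Without the 4 cells the order of the first and the third was turned, with 0.02 for DPPA5 and 0.82 for DPPA3. DPPA5 and DPPA3 were on in some cells of each side and absent in others, 15 and 11 NANOG-high cells against 12 and 9 NANOG-low cells. Of the 10 primed-state genes, 3 had a difference above 0, PODXL, a surface sialomucin, with 0.56, CD24 with 0.36 and the de novo methyltransferase DNMT3B with 0.27. The homeobox gene OTX2, with -0.56, had the lowest difference of the other 7. No gene of either list was past 1, and their medians were 0.19 and -0.12. Of 5 DNA methylation enzymes compared, 1 had a difference above 0 and the median was -0.17. That gene, TET1, which oxidises methylcytosine, differed by 0.92, from 3.57 ± 1.07 to 4.48 ± 0.79, with 77.9% of pairs higher in the NANOG-high cell and 0.80 without the 4 cells. The maintenance methyltransferase DNMT1 differed by -0.47, DNMT3A by -0.27 and MBD2, which binds methylated DNA, by -0.17.

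Of 19 genes next to NANOG on 12p13, 4 reached 10 TPM and 0 were past 1. Their median was 0.12, but 0.44 without the 4 cells and 1.64 in the 53 gene-poor cells, against 0.77 there for all genes. SLC2A3, a glucose transporter, differed by 0.48, GDF3 by 0.22, DPPA3 by 0.02 and NECAP1 by -0.03. Without the 4 cells SLC2A3 was at 0.23, below GDF3 and DPPA3, whose values are given above. SLC2A14, a near copy of SLC2A3 with which reads may be shared, was under 10 TPM and was detected in 15 NANOG-high and 9 NANOG-low cells. NANOGNB, a homeobox gene related to NANOG, was detected in 3 and 2 cells.

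Ligands and receptors of other pathways held a few genes past 1. FGF2, the growth factor of primed culture, on chromosome 4 at 123747837 to 123819391, was detected in 21 NANOG-high, 23 middle and 18 NANOG-low cells, with medians of 15.4, 9.37 and 9.38 TPM. By its median, FGF2 in the middle cells was as low as in the NANOG-low cells. Its difference was 1.12, from 3.99 ± 1.21 to 2.87 ± 1.60, and 0.65 without the 4 cells. SPRED1, a feedback inhibitor of the FGF pathway, differed by 0.99 and ETV5, a target, by 0.47, and 1 of 11 FGF pathway genes compared was past 1 (9.09%, against 2.67% of all genes), with a median of 0.29 (0.04 without the 4 cells). In the BMP list, the receptor BMPR1A differed by 0.98, SMAD1 by 0.78 and the target ID3 by -0.70 (-0.43 without the 4 cells), with 0 of 7 past 1. In the WNT list, SFRP1, a secreted WNT inhibitor, was the 1 of 7 genes past -1 (14.3%, against 0.647% of all genes). Its medians were 4.39 TPM in NANOG-high, 8.82 in middle and 13.6 in NANOG-low cells, and its difference was -1.25, or -0.86 without the 4 cells. FZD5, a WNT receptor, differed by 0.96, or 0.58 without those cells.

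KDR (VEGFR2), a receptor kinase of early mesoderm and endothelium, was detected in 21 NANOG-high, 21 middle and 15 NANOG-low cells, with medians of 9.48, 5.62 and 3.42 TPM. Its difference was 1.39, and 1.03 without the 4 cells, but 0.85 with a border of 9000 genes and 0.94 after adjustment for detected genes, both below 1. HHEX, a homeobox factor of endoderm and the other mesendoderm marker that reached 10 TPM, differed by 0.31 (0.55 without the 4 cells) and was detected in 12 NANOG-high, 16 middle and 14 NANOG-low cells. Of the 17 mesendoderm markers, 4 were at 0 in all NANOG-high and NANOG-low cells (GATA6, SOX17, FOXA1 and EVX1), and T and EOMES were detected in at most 2. The markers of the list summed to 4.74 to 109.88 TPM with a median of 24.5 in NANOG-high and 0 to 68.1 TPM with a median of 16.7 in NANOG-low cells. Neurectoderm markers summed to a median of 136 against 165 TPM, and amnion and trophoblast markers to 872 against 922 TPM. Most of the latter sum was KRT18 and KRT8, and CDX2, HAND1, TP63, MSX2 and VTCN1 were at 0. Such sums weigh abundant markers most. By detection, 3 mesendoderm markers were found in more NANOG-high and 4 in more NANOG-low cells. These counts were 4 and 3 for neurectoderm, 6 and 0 for amnion and trophoblast, and 6 and 2 for fibroblast markers. Fibroblast markers summed to a median of 148 against 103 TPM, and 3 of the 4 compared had a difference above 0, with a median of 0.51 (0.12 without the 4 cells). TAGLN (transgelin, an actin-binding protein) differed by 1.81, VIM (vimentin) by 0.68 and FN1 (fibronectin) by 0.35. Without the 4 cells these were 0.93, 0.15 and 0.10. LUM, DCN and ACTA2 were at 0 and COL3A1, POSTN and PDGFRB were detected in at most 2 cells.

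Among chromatin and cell cycle genes, PHF19, an accessory subunit of Polycomb repressive complex PRC2, differed by 1.32 (1.30 without the 4 cells), with medians of 22.1, 11.2 and 8.99 TPM in the NANOG-high, middle and NANOG-low cells. It was the 1 of 11 Polycomb genes past 1 (9.09%, against 2.67% of all genes). SESN1, a stress-induced target of p53, differed by 1.47 and was detected in 20, 15 and 12 cells. It was the 1 of 10 past 1 in its list (10%, against 2.67% of all genes). SESN1 was below 1 with a border of 9000 genes, with 34 against 34 cells and with a pseudocount of 10. None of the 22 S-phase and 25 mitosis genes compared was past 1. Within them CDC45 and FEN1, replication proteins, differed by -0.99 and -0.94, and CDK1, the mitotic kinase, by 0.91 (0.21 without the 4 cells). The medians of both lists, -0.02 and 0.05, lay close to that of all genes. MYC differed by 0.72 (0.20 without the 4 cells) and MYCN by 0.60.

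Lists of other functions had medians near 0. The 20 glycolysis genes had a median of 0.08, the 29 respiratory chain genes -0.05, the 14 housekeeping genes 0.01 and the 82 ribosomal protein genes 0.13, with 0 past 1 in any of them. The 10 partner proteins of NANOG and NuRD subunits had a median of 0.13, the 15 surface and adhesion markers 0.14 and the 8 transcripts that mark RNA quality 0.11, also with 0 past 1. Of the shelterin genes, which protect telomeres, TERF1 was 236 to 704 TPM in NANOG-high and 122 to 1082 TPM in NANOG-low cells, a difference of -0.05 (0.15 without the 4 cells). TINF2 differed by 0.27 and TERF2IP by -0.31. In the telomerase and dyskerin list, 0 of 10 genes were past 1 and the median was 0.03. Of PluriNet, a network of genes shared by pluripotent cells that the study used as a score, 252 genes were compared and the median was -0.03. In it 5 genes were past 1 (CDA, LCK, POLG2, LRIF1 and ANXA3), which is 1.98% and thus below the 2.67% of all genes. Without the 4 cells 4 of them were, with ANXA3 at 0.64. The network was chosen by the study as a readout of these cells.

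**Figure D4:**
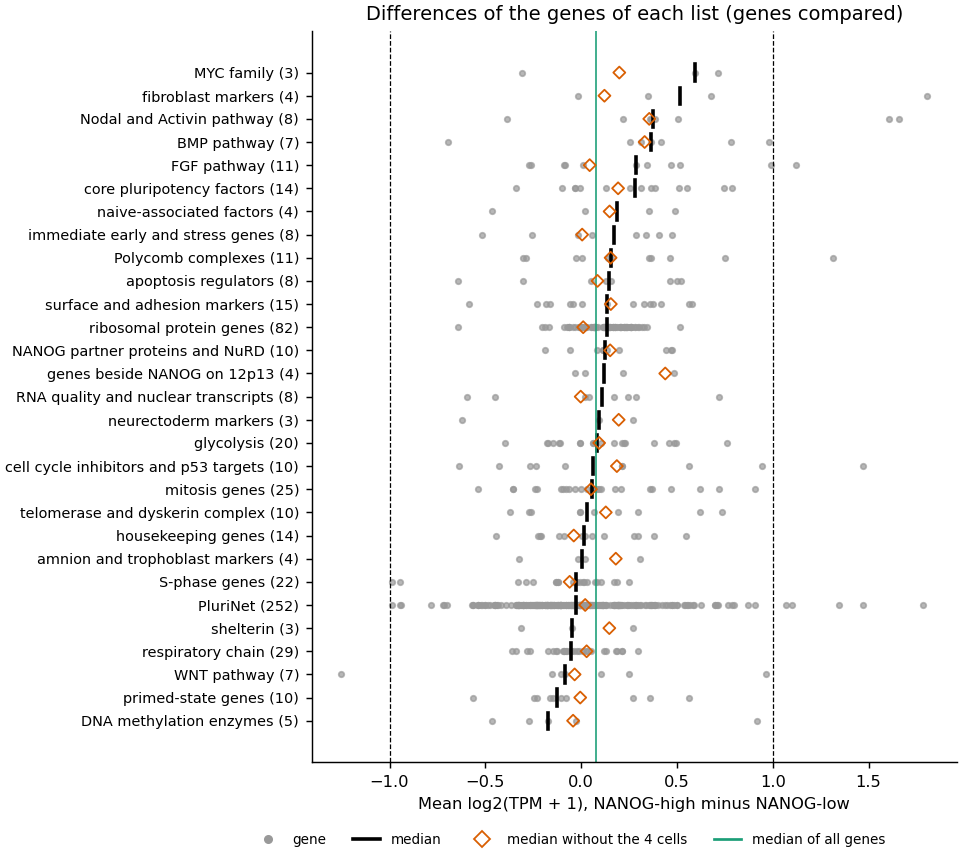
Difference of mean log2(TPM + 1), NANOG-high minus NANOG-low, for each gene compared (grey points) of each list with at least 3 such genes (their number in parentheses). Black bars are the medians, orange diamonds the medians without the 4 NANOG-low cells of low ribosomal sum, and the green line the median of 0.08 over 6185 genes. The median of the Nodal and Activin list is 0.38 with and 0.36 without those cells, while that of the FGF list goes from 0.29 to 0.04.

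The genes of largest difference were of mixed kind. D21S2088E, a long non-coding RNA on chromosome 21, differed by 2.28 and was detected in 22 NANOG-high, 22 middle and 15 NANOG-low cells. RPL21P28, a ribosomal protein pseudogene whose reads may come from its parent gene, differed by 2.21 with nearly equal medians, 4854 and 4111 TPM. It was undetected in 4 NANOG-low cells, 2 of them of low ribosomal sum. Its difference was 1.27 without the cells of low ribosomal sum and -0.02 among long telomere cells alone. DCK, the kinase that phosphorylates deoxycytidine, was the gene higher in the largest share of pairs among the 165, 80.5%. Its TPM was 0 to 77.9 with a median of 32.9 in NANOG-high cells and 0 to 71.6 with a median of 7.52 in NANOG-low cells, with the middle cells at 17.1. Its difference was 2.05, from 4.79 ± 1.35 to 2.75 ± 2.05, and 1.61 without the 4 cells. GUCY1B3, a subunit of soluble guanylate cyclase, differed by 1.94, CDA, which deaminates cytidine, by 1.79 and the antisense RNA TCEB3-AS1 by 1.81. The other 5 of the 12 highest genes beside TAGLN were small RNA genes (SNORD60, SNORA33, SNORA70, SNORD45C and MIR1304), which were off in many cells of both sides.

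The 12 lowest differences were headed by HIST1H4J, a histone H4 gene, at -2.00. Its medians were 38.1 TPM in NANOG-high, 76.0 in middle and 112 in NANOG-low cells, and the difference was -1.39 without the 4 cells. TNNT1, a troponin of slow muscle, differed by -1.31 and was lower in the NANOG-high cell in most pairs, with 25.8% higher. CA2, a carbonic anhydrase, differed by -1.25 and was detected in all 22 NANOG-low but in 16 NANOG-high cells. Its medians were 22.7 TPM in NANOG-high, 16.1 in middle and 30.3 in NANOG-low cells, so the middle cells were lowest. PHF23, a PHD finger protein, differed by -1.27 and SIX6, a homeobox gene of the eye, by -1.35 (-0.90 and -0.55 without the 4 cells). The others were SFRP1, HIST1H2AC and the small RNA genes MIR3655, SNORA48, MIR1282, MIR3685 and SNORD44.

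Ranked by likeness to NANOG over the 68 cells, Spearman's rho ran from -0.45 to 0.47 with a median of 0.03 over 6185 genes. The coefficients come from 68 cells, in which each gene shares library and scaling with NANOG. The 5 highest were DCK (0.47), CCND2 (0.46), AGTPBP1 (0.46), XPO1 (0.45) and ATF7IP (0.45). CCND2, cyclin D2, was detected in every ranked cell, at 27.5 to 80.6 TPM in NANOG-high and 11.6 to 69.4 TPM in NANOG-low cells, with 83.1% of pairs higher and a difference of 0.80 (5.76 ± 0.47 against 4.96 ± 0.68). That difference exceeds the SD of each side. XPO1, the nuclear export receptor, differed by 0.67 and ATF7IP, a partner of the methyltransferase SETDB1, by 0.89 (0.43 and 0.60 without the 4 cells). The 5 lowest were FEN1 (-0.45), CACYBP (-0.44), VIMP (-0.43), FAAP20 (-0.43) and SRP14 (-0.42), with differences of -0.94, -0.38, -0.94, -1.13 and -0.40.

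Precursors of the miR-302 cluster, which is highly expressed in pluripotent cells, were seen in few cells. MIR302D and MIR367, on chromosome 4 at 113569160 to 113569227 and 113569030 to 113569097 on the minus strand, were described after their values were seen, and the mature sequences are shown because the miR-302 members share the seed (bases 2 to 8, in capitals) and MIR367 does not. The sequences are RefSeq's.

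hsa-miR-302a-3p: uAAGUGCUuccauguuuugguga
hsa-miR-302b-3p: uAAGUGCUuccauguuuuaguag
hsa-miR-302c-3p: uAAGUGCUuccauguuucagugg
hsa-miR-302d-3p: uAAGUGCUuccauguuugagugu
hsa-miR-367-3p: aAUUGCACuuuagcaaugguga

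MIR302D was detected in 9 NANOG-high, 6 middle and 4 NANOG-low cells and differed by 1.35, and MIR367 was detected in 7, 6 and 4 cells and differed by 1.20. MIR302D kept a difference of 1.07 without the 4 cells and 1.49 among long telomere cells, whereas MIR367 was at 0.99 and 0.26, both below 1. With medians in place of means, 34 against 34 cells, a border of 9000 genes or a pseudocount of 10, MIR302D was below 1 too. Of 12 alternatives that change a difference, MIR302D stayed past 1 in 8 and MIR367 in 7. The cell with the most MIR302D, 1245 TPM, was a NANOG-low cell. Reads primed on poly(A) at these loci come from longer transcripts and do not measure the mature miRNA. LARP7, the gene that hosts the cluster in an intron on the other strand, differed by 0.07. MIR302A was detected in 4, 3 and 1 cells, MIR302B in 5, 3 and 3 and MIR302C in 3, 2 and 2.

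The 53 gene-poor cells share no cell with the ranked ones and were ranked by NANOG in the same way, 17 against 17. There most genes were higher in the cells of high NANOG: the median difference over the 6185 genes was 0.77, 76.7% of the genes were above 0 and 41.5% were past 1. Of the 165 higher genes, 138 (83.6%) were above 0, with a median of 0.92, and 44.8% were past 1, close to the share of all genes. Of the 40 lower genes, 17 (42.5%) were below 0 against 22.9% of all genes, with a median of 0.11. The drop in detected genes beside NANOG in these cells is given above, as are the short telomere cells, 0 of 17 against 9 of 17. The part of either in the shift was not tested. NODAL differed by 2.26 there, LEFTY1 by 1.90, DCK by 1.87 and FGF2 by 1.35, all above the shift of 0.77. These genes were off in many of the cells. NODAL was detected in 7 of the 17 cells of high NANOG and in 0 of the 17 of low NANOG. For LEFTY1 these counts were 6 and 0, for DCK 9 and 4 and for FGF2 10 and 4. Below 0 were TNNT1 (-3.39), HIST1H4J (-3.06) and SFRP1 (-1.17), whereas MIR302D (-0.78) and MIR367 (-1.02) had the opposite sign to the ranked cells. So did 6 of the 24 genes of largest difference, D21S2088E (-0.16), SNORA33 (-0.92), SNORD45C (-0.04), CA2 (0.41), PHF23 (0.60) and SNORA48 (0.19). FEN1, lower in the ranked cells, differed by 2.55. Of the 12 genes of highest difference, 5 lay above the shift of 0.77, and GUCY1B3 (0.37) and, outside the 12, SESN1 (0.30) lay below it. POU5F1 differed by 0.94, TDGF1 by 3.26 and SOX2 by -0.09.

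**Figure D5:**
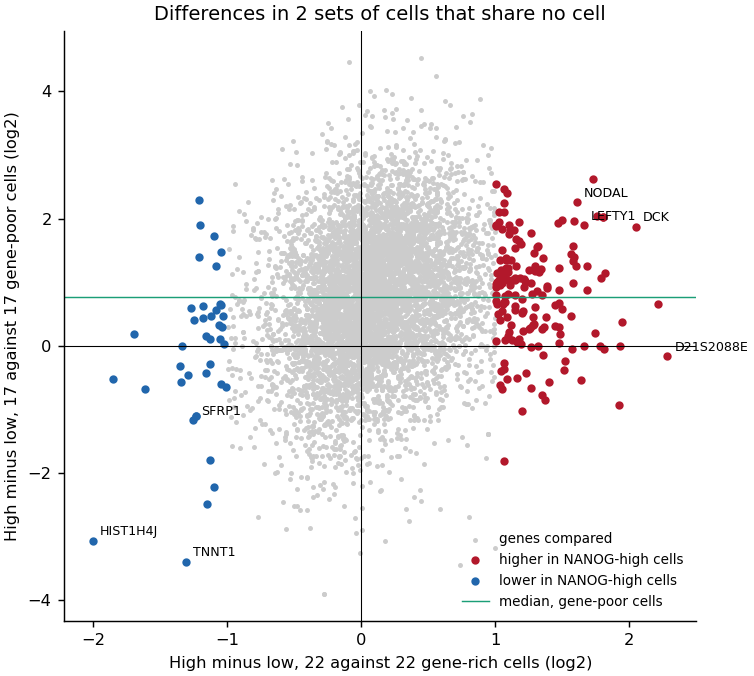
Difference of mean log2(TPM + 1) between cells of high and low NANOG in the 22 against 22 gene-rich cells (horizontal axis) and in 17 against 17 gene-poor cells (vertical axis), for 6185 genes. Red and blue points are the 165 higher and 40 lower genes of the gene-rich comparison, and the green line is the median of 0.77 in gene-poor cells. NODAL, LEFTY1 and DCK lie above that line and TNNT1 and HIST1H4J far below 0.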

How the data were processed

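Single WA26 cells were lysed, mRNA was captured with biotinylated oligo-dT and amplified by a Smart-seq2 based protocol. The authors deposited 1 table of TPM values, 1 column per cell. The labels' processing notes name TopHat2, RSEM and hg19, while the methods name TopHat, HTSeq and size factors, so how the TPM were made is not settled. TPM keeps no depth, and the depth per cell is unknown. The table was read for 25610 genes up to ZFR, 1 incomplete row was left out, and symbols past it were not used. Summed per cell, the TPM read came to 979828 to 997050, and 0 pairs of cells were identical.

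Differences are of mean log2(TPM + 1). A gene counts as detected above TPM 1 and as past the limit at a log2 difference of 1 among genes with a mean of at least 10 TPM. Members and lists were chosen with earlier results of these data known. Named genes are the 12 highest and 12 lowest differences, the 5 highest and lowest rho, all core, Nodal and 12p13 genes and, of each other list, the 4 genes with the largest absolute difference, of which not every one is reported here, and 2 genes were left out of the lists and are not reported here. The miR-302 genes, LARP7, SNORD58B, ANXA3, TMEM106C, TM2D3 and the histone and small RNA groups below were added after their values were seen. The 4 cells of low ribosomal sum were also singled out afterwards. Telomere classes are those of the sample titles. Calculations were tested on simulated data. Sequences are from RefSeq, positions from a GRCh37 annotation. Python 3.11.15, pandas 2.3.3, numpy 2.4.6, scipy 1.17.1 and matplotlib 3.10.9 were used.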

Additional observations from a re-analysis of the deposited data

How the results depend on the processing

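Of 14 alternatives, 8 moved both counts of genes past 1 by over 1.5 times, 2 the lower count alone and 4 neither, and 1 moved the median difference over all genes. Against 165 higher and 40 lower genes, 507 and 128 were found with a pseudocount of 0.1, 5 and 1 with a pseudocount of 10, 292 and 72 over every gene above TPM 0 in at least 1 ranked cell, and 9 and 8 among genes with a mean of at least 50 TPM. Comparing 11 with 11 cells gave 666 and 279, comparing 34 with 34 gave 74 and 9, and adjustment for detected genes gave 83 and 73, of which 74 were among the 165. Medians in place of means gave 75 lower genes and long telomere cells alone 68, with higher counts within 1.5 times. A border of 9000 genes, rescaling without ribosomal protein genes, median ratio scaling and leaving out the 4 cells of low ribosomal sum kept both counts within 1.5 times, but not the same genes. With the border of 9000 genes 75 of the 165 higher and 18 of the 40 lower genes were still past 1. Depth per cell is unknown, and its part in these counts was not tested.

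Ranking all 121 cells, 40 against 40, mixed in gene-poor cells: 3217 genes were higher and 86 lower, the median difference was 1.04, detected genes differed by 2528, and 45% of the low cells had long telomeres. List medians were then 1.78 for Nodal and Activin, 1.22 for core pluripotency, 1.31 naive, 0.62 primed, 1.61 BMP, 1.45 FGF, 0.64 WNT, 0.38 DNA methylation, 1.49 Polycomb, 1.16 NANOG partners, 1.22 surface markers, 1.48 on 12p13, 1.28 telomerase, 1.09 S-phase, 1.41 mitosis, 0.69 p53 targets, 0.87 apoptosis, 1.02 glycolysis, 1.34 immediate early, 1.68 RNA quality, 0.80 housekeeping and 0.98 PluriNet. Of the 40 lower genes, 21 changed sign there, with TMEM106C at 1.69, TM2D3 at 1.02, CA2 at 0.043 and HIST1H2AC at 0.017, and 1 did so with the border of 9000 genes. Of the 165 higher genes, 1 changed sign with 34 against 34 cells and 1, RPL21P28 (-0.020), in long telomere cells. The cause was not tested.

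Of 12 alternatives that change a difference, NODAL stayed past 1 in 8 (0.58 to 3.10), LEFTY1 in 9 (0.73 to 2.73), FGF2 in 6 and SFRP1 in 6, and D21S2088E, DCK, SNORD58B and HIST1H4J in all 12. Leaving aside the pseudocount of 10, 18 higher genes and 1 lower gene were past 1 in the other 11. No paired analysis was possible because no cells are paired and no result comes from a test.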

Other observations

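Replicative histone genes, grouped after their values were seen, were mostly lower in NANOG-high cells. Their mRNAs mostly end without a poly(A) tail, and oligo-dT libraries catch the share that has one. Of 13 HIST genes compared, 9 differed below 0 and 5 were past -1, against 0.647% of all genes, and the median was -0.90. The 5 include HIST2H2AA3 and HIST2H2AA4, which had the same difference of -1.23, so they are not 5 separate measurements. Without the 4 NANOG-low cells of low ribosomal sum the median was -0.71 and 6 were past -1. In gene-poor cells 7 of 13 were below 0, with a median of -0.29 against 0.77 over all genes. The 22 S-phase genes compared had a median of -0.02 between NANOG-high and NANOG-low cells and of 1.83 in gene-poor cells. Some HIST genes are near-identical copies whose reads may be shared.

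Small RNA genes (SNOR, SCARNA, MIR and RNU symbols) made up 99 of the 6185 genes compared (1.60%), yet 18 of the 165 higher (10.9%) and 7 of the 40 lower genes (17.5%). Of the 99, 77 were detected in under 50% of the ranked cells and 3 in all of them. Of the 25 past 1 or -1, 19 were detected in under 50%, and the 25 ranged from 7 to 52 of the 68 cells. Their part in the counts of genes past 1 was not tested.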
